A study of Arabidopsis thaliana with 6 samples.

Results

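Transcript levels in melatonin-treated Arabidopsis were set directly against those in plants given indole-3-acetic acid (IAA), across the whole read-count table. The comparison used the 2 libraries labelled 10 nM melatonin (MT) and the 2 labelled 1 nM IAA, which are 4 of the 6 libraries of the series, and every one of its 24267 gene rows. All plants were wild-type Arabidopsis thaliana, accession Columbia, sampled 72 h after young seedlings were moved to medium holding MT, IAA or, for the 2 control libraries, only the ethanol used as solvent. The labels name seedlings as the tissue and the series' design text names rosette leaves. Root genes were measured in every library, with the 5 root hair markers summing to 97.4 to 156 CPM (reads scaled to a common library size) and the 5 mesophyll markers to 19795 to 26020 CPM. The doses differed 10-fold, so the compound and its dose cannot be told apart in any value given here.

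IAA is the main natural auxin, the hormone that directs growth, root branching and tropisms by releasing genes from the Aux/IAA repressors. Melatonin is an indole too, and plants make both compounds from tryptophan. Melatonin is best known in plants for its work in stress tolerance, redox balance and the delay of leaf senescence, and its likeness to auxin has been a recurring question because of the shared origin and some shared effects on roots.

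The MT libraries held 35953236 and 39528975 counts, the IAA libraries 43662338 and 46076624, and the controls 36023731 and 38186518. Of the gene rows, 21355 had enough counts to be tested. The 2 libraries of a group differed by more than counting noise, with log CPM correlating across genes at r = 0.977 for MT and 0.981 for IAA. No label tells if the libraries of 1 treatment were grown apart, so p-values measure the spread between these libraries, which may be technical.

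The direct comparison of MT with IAA gave a short list of called genes, whose length depended on the test used. By edgeR's quasi-likelihood test, 37 genes differed at an adjusted p under 0.05, which is 0.173% of the genes tested. The call went to 19 genes as higher with MT (0.0890%) and to 18 as lower (0.0843%). A difference of at least 2-fold was reached by 7 of the higher genes (0.0328% of all tested) and 12 of the lower ones (0.0562%). At an unadjusted p under 0.05, 1938 genes were higher with MT (9.08%) and 1769 lower (8.28%). Those shares are the background for every count of list members at that threshold below. DESeq2 called 1225 genes on the same libraries (5.74%), 685 higher (3.21%) and 540 lower (2.53%). Both MT libraries lay on one side of both IAA libraries in 50.4% of the genes tested, above them in 24.3% and below them in 26.1%, and in all 37 called genes. The median absolute log2 difference over all genes tested was 0.169 and the median signed difference was -0.0046.

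The list of called genes rested on small margins. Among the 37, 35 had an adjusted p of at least 0.04, and only Phox2, at 0.00353, stayed called with each of the 6 libraries left out in turn. Without control replicate 1 or control replicate 2, 7 and 6 genes were called, and 2 of the 37 were among them each time. Leaving out IAA replicate 1 gave 14 genes with 5 of the 37, and leaving out IAA replicate 2 gave 7 genes with 1 of the 37. Without MT replicate 1 there were 34 calls with 7 of the 37. Without MT replicate 2 there were 340 calls and all 37 were among them. All 37 kept their sign in each of the 16 alternative settings. Their MT and IAA libraries did not overlap, so a sign could hardly turn and this adds no support to the calls.

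**Figure D1:**
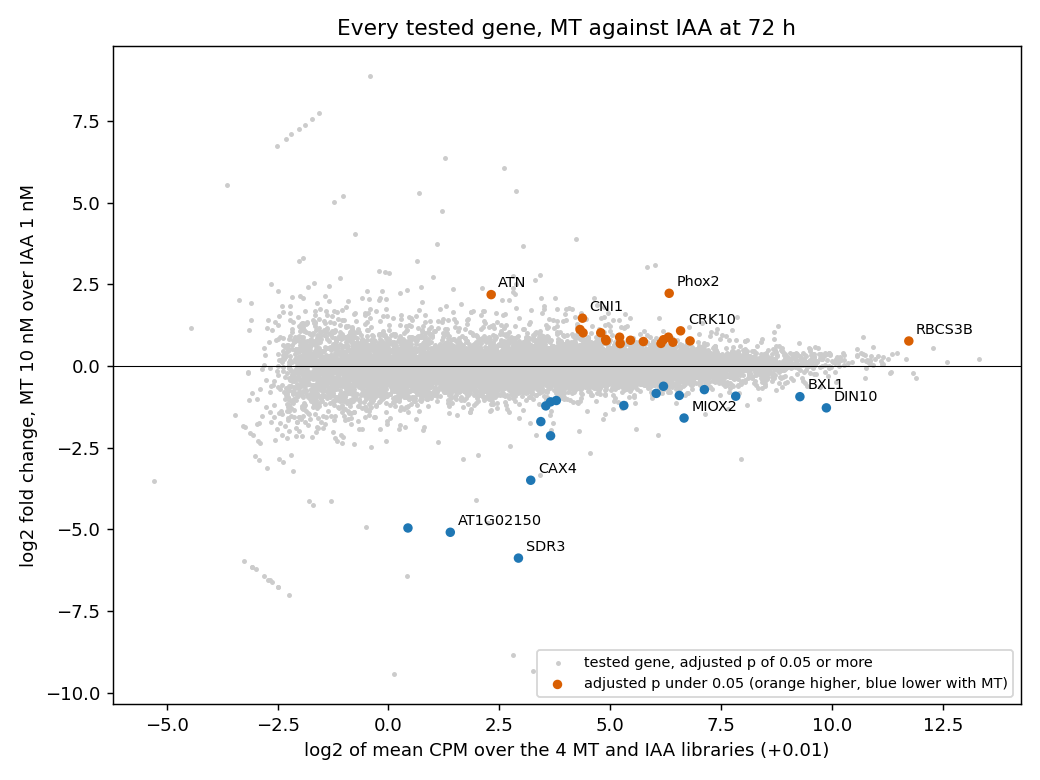
Every tested gene by its mean level over the 4 MT and IAA libraries (x axis, log2 CPM) and its log2 fold change of MT over IAA (y axis). The 37 genes with an adjusted p under 0.05 are coloured, orange for the 19 higher and blue for the 18 lower with MT, and several grey genes lie farther from 0 than any coloured one.

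The gene with the firmest difference, Phox2, encodes a protein with PB1 and tetratricopeptide repeat domains. Its level stood at 27.6 and 28.8 CPM with IAA, at 130.2 and 134 CPM with MT and at 106 and 127 CPM in the controls. The IAA libraries were low and the MT libraries stood just above the controls, with no overlap between MT and IAA. The log2 fold change of MT over IAA was 2.23 ± 0.10 (SE), a 4.69-fold difference. In the same fit the log2 fold change of IAA over control was -2.05 ± 0.10 (adjusted p = 0.00356, a comparison in which 0.332% of genes passed). That of MT over control was 0.18 ± 0.10 (adjusted p = 0.301, where 7.65% of genes passed).

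In 6 other called genes, ATN, SDR3, AT5G01881, LHCB4.3, MSRB9 and AT5G17760, the control level likewise lay nearer to MT than to IAA on the log2 scale. For AT5G17760 it lay about midway, at 37.9 and 35.4 CPM against 28.5 and 28.6 CPM with IAA and 44.3 and 47.8 CPM with MT. ATN, listed in the annotation as a cyclin family gene, stood at 2.07 and 1.49 CPM with IAA, at 7.81 and 8.47 CPM with MT and at 6.93 and 6.67 CPM in the controls. It was 4.56-fold higher with MT than with IAA (log2 2.19 ± 0.20, adjusted p = 0.0425). SDR3, of the family of short-chain dehydrogenases, was read 899 and 459 times in the IAA libraries, 2 and 17 times with MT and 3 times in each control. IAA libraries alone carried more than a trace of it. The ratio of IAA to MT over pooled counts was 58.2, with a 95% counting interval of 37.1 to 96.9. Such an interval leaves out the spread between libraries. The fitted log2 fold change for SDR3 was -5.88 ± 0.66 (adjusted p = 0.0455), with a 95% interval of -7.46 to -4.30. The estimate ranged from -7.97 without MT replicate 2 to -5.11 without MT replicate 1. AT5G01881, an uncharacterized gene that overlaps AT5G01880 on the same strand and so could share its reads, had 111 and 129 counts with IAA against 5 and 1 with MT and 5 and 4 in the controls. Its mean was under the 2 CPM required of the named genes, and its log2 fold change of -4.96 ± 0.58 (adjusted p = 0.0455) became -6.53 without MT replicate 1 and -4.18 without MT replicate 2.

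Among the genes lower with MT, AT1G02150, CAX4 and AT5G40250 had levels close to the control in the IAA libraries and far below it with MT. AT1G02150, a tetratricopeptide repeat gene, gave 138 and 336 counts with IAA, 4 and 7 with MT and 187 and 167 in the controls. The ratio of IAA to MT over pooled counts was 35.1, with a 95% counting interval of 19.4 to 70.7. The fitted log2 fold change was -5.09 ± 0.53 (adjusted p = 0.0455), with a 95% interval of -6.34 to -3.83. CAX4, a vacuolar antiporter that exchanges cations for protons, was at 18.7 and 15.2 CPM with IAA, at 1.16 and 1.83 CPM with MT and at 17.1 and 7.98 CPM in the controls. Both MT libraries were below every other library, and CAX4 was 11.3-fold lower with MT than with IAA (log2 -3.49 ± 0.41, adjusted p = 0.0455). AT5G40250, a RING/U-box gene of the kind that encodes ubiquitin ligases, stood at 19.5 and 21.4 CPM with IAA, at 3.65 and 5.65 CPM with MT and at 23.7 and 23.0 CPM in the controls. That made it 4.39-fold lower with MT (log2 -2.13 ± 0.20, adjusted p = 0.0425). limma-voom, a linear model on weighted log counts, did not call SDR3, AT1G02150 and CAX4.

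**Figure D2:**
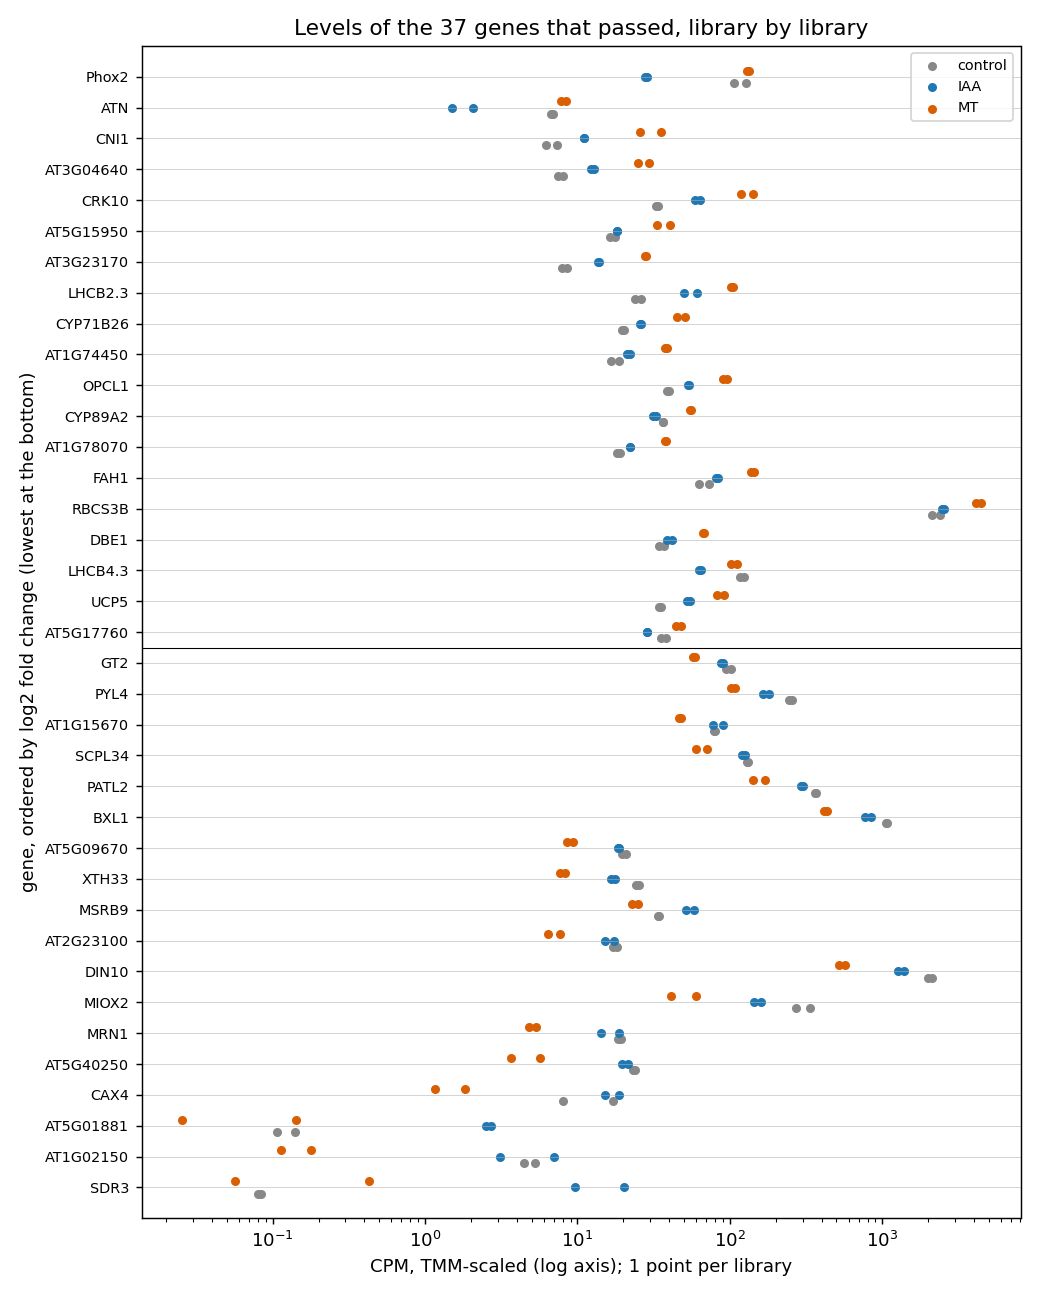
Level of each of the 37 called genes in each of the 6 libraries (x axis, CPM on a log scale, 1 point per library), ordered by log2 fold change from SDR3 at the bottom to Phox2 at the top, with the 18 lower genes under the line. MT points (orange) and IAA points (blue) do not overlap for any of them, and grey control points lie beside IAA for some genes, beside MT for others and outside both for the rest.

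Genes of sugar and carbon starvation were lower by median with MT than with IAA. These genes are held down by sugars and come on in darkness or when carbon runs short, so that amino acids and wall polymers are used in place of sugars. Of 26 tested members, 2 fell with MT and 0 rose, and 15 were lower and 0 higher at an unadjusted p under 0.05. The median log2 fold change of the list was -0.36, against -0.0046 over all genes. Its summed level stood at 4311 and 4311 CPM with IAA, at 2806 and 2822 CPM with MT and at 5994 and 6462 CPM in the controls. All 3 groups were apart in that sum, with the controls highest and MT lowest. A single member, DIN10, held 1258.5 and 1386 CPM of the sum with IAA and 518 and 573 CPM with MT. The sum without DIN10 was not tested.

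DIN10, a raffinose synthase family gene first found as induced by darkness, was at 1258.5 and 1386 CPM with IAA, at 518 and 573 CPM with MT and at 2002 and 2127 CPM in the controls. It was 2.42-fold lower with MT than with IAA (log2 -1.28 ± 0.10, adjusted p = 0.0395) and it is among the most abundant genes called. MIOX2 encodes an inositol oxygenase that opens a route to the sugar acids of the cell wall. It stood at 144 and 159.5 CPM with IAA, at 41.2 and 59.6 CPM with MT and at 273 and 334 CPM in the controls, again stepwise, and was 3.01-fold lower with MT (log2 -1.59 ± 0.19, adjusted p = 0.0455). Other members had like values without passing the test. The hexose transporter gene STP1 was at 412 and 459.5 CPM with IAA, at 193 and 240.0 CPM with MT and at 684 and 702 CPM in the controls (log2 -1.01 ± 0.12, adjusted p = 0.0513). Proline dehydrogenase, which breaks down proline and is named ERD5 in the annotation, was at 269.5 and 306 CPM with IAA, at 99.0 and 135 CPM with MT and at 578 and 662 CPM in the controls (log2 -1.30 ± 0.16, adjusted p = 0.0557). BCAT-2, an aminotransferase of branched-chain amino acids, had a log2 fold change of -1.15 ± 0.17 (adjusted p = 0.0633). ASN1, the asparagine synthetase gene used as a marker of low sugar, was at 55.0 and 74.7 CPM with IAA and at 19.3 and 39.8 CPM with MT (log2 -1.13 ± 0.33, adjusted p = 0.175). Its libraries did not overlap, but the MT libraries were farther from each other than MT replicate 2 was from IAA replicate 1.

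BXL1, a beta-xylosidase that trims xylan in the wall, was not on the starvation list and followed the same order of levels. It stood at 774 and 848 CPM with IAA, at 412 and 436 CPM with MT and at 1055 and 1066 CPM in the controls and was 1.91-fold lower with MT (log2 -0.94 ± 0.09, adjusted p = 0.0425). Its relative BXL2 had a log2 fold change of -0.71 ± 0.10 (adjusted p = 0.0633), and it is named after its values were seen. PATL2, a patellin that binds membrane lipids, was at 301 and 292 CPM with IAA, at 143 and 171 CPM with MT and at 361 and 364 CPM in the controls (log2 -0.92 ± 0.11, adjusted p = 0.0455). PATL1, also named after its values were seen, had a log2 fold change of -0.62 ± 0.09 (adjusted p = 0.0633). SCPL34, a serine carboxypeptidase-like gene, stood at 119 and 125 CPM with IAA, at 60.2 and 71.0 CPM with MT and at 129 and 132 CPM in the controls (log2 -0.90 ± 0.10, adjusted p = 0.0455). CNI1, a ubiquitin ligase of the response to the balance of carbon and nitrogen, rose. It stood at 10.98 and 10.97 CPM with IAA, at 35.0 and 25.7 CPM with MT and at 7.35 and 6.21 CPM in the controls and was 2.77-fold higher with MT (log2 1.47 ± 0.17, adjusted p = 0.0455). DBE1, a debranching enzyme of starch metabolism, was at 41.4 and 38.4 CPM with IAA and at 66.7 and 67.8 CPM with MT (log2 0.75 ± 0.08, adjusted p = 0.0455).

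Photosynthesis genes were higher by median with MT than with IAA, and every tested member had a positive sign in the light-harvesting antenna, the chlorophyll-binding proteins that pass light energy to the photosystems. Of 20 antenna genes tested, 2 rose and 0 fell, 18 were higher and 0 lower at an unadjusted p under 0.05, and DESeq2 called 17 as higher. The median was 0.52, and the members' log2 fold changes ran from 0.18 to 0.92. The summed level stood at 15450 and 13905 CPM with IAA, at 21309 and 20127 CPM with MT and at 12585 and 13398 CPM in the controls. LHCB2.3, of the trimeric antenna of photosystem II, stood at 61.1 and 50.01 CPM with IAA, at 105 and 101 CPM with MT and at 24.0 and 26.0 CPM in the controls (log2 0.89 ± 0.11, adjusted p = 0.0498). It overlaps AT3G27700 on the other strand. LHCB4.3, of a minor antenna protein, stood at 64.9 and 62.7 CPM with IAA, at 111 and 101 CPM with MT and at 124 and 116 CPM in the controls, so that IAA was low and MT near the control (log2 0.73 ± 0.08, adjusted p = 0.0455). LHCB3 was at 488 and 447 CPM with IAA, at 767 and 746 CPM with MT and at 279.7 and 297 CPM in the controls without passing (log2 0.69 ± 0.09, adjusted p = 0.0578), and LHCB6 had a log2 fold change of 0.56 ± 0.09 (adjusted p = 0.0695).

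Rubisco, the enzyme that fixes carbon dioxide, is built from small subunits encoded in the nucleus. RBCS3B was at 2466 and 2540 CPM with IAA, at 4122 and 4411 CPM with MT and at 2386 and 2109 CPM in the controls. It was 1.70-fold higher with MT (log2 0.77 ± 0.09, adjusted p = 0.0455) and had the highest level of any called gene. RBCS2B was at 1387 and 937 CPM with IAA and at 1943 and 2392 CPM with MT (log2 0.90 ± 0.20, adjusted p = 0.123), RBCS1A had a log2 fold change of 0.22 ± 0.06 (adjusted p = 0.18), and the transketolase gene AT3G60750 one of 0.30 ± 0.10 (adjusted p = 0.199). The small-subunit genes are close in sequence, so reads could be split between them, and the treatment of shared reads is not given in the sources used here. Of 16 carbon fixation genes, 1 rose and 0 fell. At an unadjusted p under 0.05, 7 were higher, against 9.08% of all genes tested. The median was 0.21, and it was 0.13 without MT replicate 1. The summed level was 35488 and 34448 CPM with IAA and 43755 and 38734 CPM with MT. In the controls it was 44968 and 45003 CPM, above both MT libraries. RCA, the activase of Rubisco, overlapped between the treatments, at 5800 and 5866 CPM with IAA and at 7180 and 5565.5 CPM with MT (log2 0.13 ± 0.12, adjusted p = 0.633), and is named after its values were seen.

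In the photosystems and the electron transport chain, 0 of 27 genes passed, 20 were higher and 0 lower at an unadjusted p under 0.05, DESeq2 called 14 as higher, and the median was 0.32. PSAK, a photosystem I subunit, was at 573 and 548 CPM with IAA and at 709 and 759.6 CPM with MT (log2 0.39 ± 0.08, adjusted p = 0.116), and PSAF and PSAN of the same complex had log2 fold changes of 0.41 ± 0.09 and 0.35 ± 0.08. Chlorophyll synthesis genes gave a median of 0.36, with 0 of 15 called and 12 higher and 0 lower at an unadjusted p under 0.05. PORB, which reduces protochlorophyllide in the light, was at 372 and 299 CPM with IAA and at 479.8 and 546 CPM with MT (log2 0.61 ± 0.14, adjusted p = 0.123). GUN4, which binds chlorophyll precursors and aids magnesium insertion, had a log2 fold change of 0.45 ± 0.10 (adjusted p = 0.112). PSAD-2, named after its values were seen, was uneven within both groups, at 217 and 1.43 CPM with IAA and at 48.8 and 1.93 CPM with MT (log2 -2.11 ± 1.82, adjusted p = 0.609). In all 15 of the chlorophyll synthesis genes and in 23 of the 27 photosystem genes both MT libraries lay above both IAA libraries, against 24.3% of all genes tested.

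Genes of root hairs, the endodermis, root triterpenes and wall loosening were lower by median with MT, opposite in sign to the photosynthesis genes. This did not hold for all root genes, as the root meristem and lateral root list had a median of -0.02, near that of all genes. In bulk tissue, fewer cells of a type and less RNA per cell cannot be told apart. The 5 root hair markers together gave 156 and 147 CPM with IAA, 97.4 and 98.9 CPM with MT and 133 and 103 CPM in the controls, and the 5 endodermis markers gave 82.1 and 104 CPM with IAA, 70.3 and 76.6 CPM with MT and 109.8 and 79.5 CPM in the controls. One of the latter, ESB1, stood at 0.970 and 27.4 CPM with IAA and at 17.9 and 27.4 CPM with MT. Without ESB1, a choice made after its values were seen, the other 4 endodermis markers gave 81.2 and 76.3 CPM with IAA, 52.4 and 49.1 CPM with MT and 84.8 and 58.2 CPM in the controls. The 5 mesophyll markers gave 20960 and 19795 CPM with IAA, 26020 and 23583 CPM with MT and 24287 and 25866 CPM in the controls. All these markers are also members of the root hair, Casparian strip or photosynthesis lists. Their sums and the values of those lists are therefore not separate measures. The share of root or leaf in each sample was not measured, and its part in the gene groups below and in the photosynthesis genes above was not tested. Xylem markers gave 127 and 111 CPM with IAA, 105 and 119.7 CPM with MT and 112 and 98.6 CPM in the controls, and phloem markers gave 221 and 238 CPM with IAA, 243 and 238 CPM with MT and 256 and 250.5 CPM in the controls, with the groups overlapping or nearly so. The 3 root cap markers gave 8.28 and 9.40 CPM with IAA, 7.92 and 6.97 CPM with MT and 7.27 and 5.81 CPM in the controls.

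Root triterpenes are specialised lipids made by gene clusters that are active in roots. Of 8 tested genes, 1 fell and 0 rose, 7 were lower at an unadjusted p under 0.05, and the median was -0.86, the lowest of the 47 lists examined. MRN1, the marneral synthase, stood at 14.3 and 18.8 CPM with IAA, at 4.84 and 5.32 CPM with MT and at 19.4 and 18.5 CPM in the controls and was 3.25-fold lower with MT (log2 -1.70 ± 0.16, adjusted p = 0.0446). Its cluster neighbour CYP71A16, an oxidase acting on marneral products, was at 16.1 and 21.5 CPM with IAA and at 8.46 and 10.6 CPM with MT (log2 -0.98 ± 0.21, adjusted p = 0.112). THAS1, the thalianol synthase, was at 125 and 151 CPM with IAA, at 76.2 and 79.1 CPM with MT and at 153 and 112 CPM in the controls (log2 -0.83 ± 0.16, adjusted p = 0.1), and CYP705A5 of the same pathway at 116 and 149 CPM with IAA and at 69.4 and 73.8 CPM with MT (log2 -0.89 ± 0.16, adjusted p = 0.0945). IAA libraries fell within the control range for THAS1, and both MT libraries lay below it.

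Casparian strip and suberin genes, which seal the endodermis, gave a median of -0.51 with 0 of 24 called and 16 lower and 0 higher at an unadjusted p under 0.05. CASP5, of the membrane proteins that place the strip, was at 3.59 and 3.38 CPM with IAA and at 1.61 and 1.65 CPM with MT (log2 -1.09 ± 0.21, adjusted p = 0.0986). PER64, a peroxidase that builds lignin there, was at 33.6 and 31.3 CPM with IAA and at 21.8 and 19.7 CPM with MT (log2 -0.65 ± 0.13, adjusted p = 0.109). Root hair genes gave a median of -0.47 with 0 of 21 called, 15 lower and 1 higher at an unadjusted p under 0.05. LRX1, a wall protein of growing root hairs, was at 58.7 and 49.7 CPM with IAA, at 35.4 and 34.7 CPM with MT and at 46.0 and 39.3 CPM in the controls (log2 -0.63 ± 0.11, adjusted p = 0.0985), and RHS12, a pectin methylesterase, had a log2 fold change of -0.83 ± 0.15 (adjusted p = 0.0985). The 1 member higher with MT was LRX2, at 0.135 and 0.210 CPM with IAA, at 1.84 and 22.0 CPM with MT and at 0.0839 and 4.53 CPM in the controls. MT replicate 2 and control replicate 2 carried most of its reads, and the libraries within each of those groups were over 10-fold apart.

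Aquaporins, the water channels, had a median of -0.26 with 0 of 23 called and 12 lower and 0 higher at an unadjusted p under 0.05. TIP2;3 of the vacuole membrane was at 30.3 and 36.1 CPM with IAA and at 18.16 and 19.0 CPM with MT (log2 -0.84 ± 0.12, adjusted p = 0.0633), and the plasma membrane channel annotated as PIP3 was at 589.7 and 570.0 CPM with IAA, at 372 and 431 CPM with MT and at 739 and 804 CPM in the controls (log2 -0.53 ± 0.10, adjusted p = 0.101). Summed over the family the level stood at 5578 and 5620 CPM with IAA, at 4867 and 4662 CPM with MT and at 6293 and 6192.5 CPM in the controls. The list of class III peroxidases, which cross-link wall polymers, had a median of -0.31 with 0 of 59 called. At an unadjusted p under 0.05, 21 were lower and 3 higher. The list was drawn by symbol or by product text naming a peroxidase, so it can hold other enzymes, such as DOX1. DOX1 had the smallest p of the list, at 245 and 273 CPM with IAA and at 156 and 146 CPM with MT. The list summed to 4842 and 5694 CPM with IAA, 5399 and 5295 CPM with MT and 4719 and 4157 CPM in the controls. In that sum MT lay between the IAA libraries. The abundant member PRXR1 lay the other way from the median, at 1191.5 and 1902 CPM with IAA and at 2383 and 2279 CPM with MT (log2 0.59 ± 0.20, adjusted p = 0.209). Without PRXR1, left out after its values were seen, the other 58 summed to 3650.5 and 3792 CPM with IAA, to 3016 and 3015 CPM with MT and to 3369 and 2744 CPM in the controls, so that MT lay below both IAA libraries.

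Expansins and xyloglucan transferases loosen walls during growth. Of 24 tested, 1 fell and 0 rose, 11 were lower and 2 higher at an unadjusted p under 0.05, and the median was -0.47, or -0.27 without MT replicate 1. XTH33 stood at 16.6 and 17.7 CPM with IAA, at 7.72 and 8.29 CPM with MT and at 24.3 and 25.3 CPM in the controls and was 2.14-fold lower with MT (log2 -1.09 ± 0.11, adjusted p = 0.0455). XTH24 was at 325 and 431 CPM with IAA, at 144 and 189 CPM with MT and at 552 and 544 CPM in the controls (log2 -1.19 ± 0.17, adjusted p = 0.0633). XTH15 and XTH17 had log2 fold changes of -0.74 ± 0.12 and -0.56 ± 0.11 (adjusted p = 0.0825 and 0.104). The expansin gene annotated as EXP3 lay the other way, at 42.8 and 37.9 CPM with IAA and at 70.1 and 56.6 CPM with MT (log2 0.65 ± 0.15, adjusted p = 0.128).

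**Figure D3:**
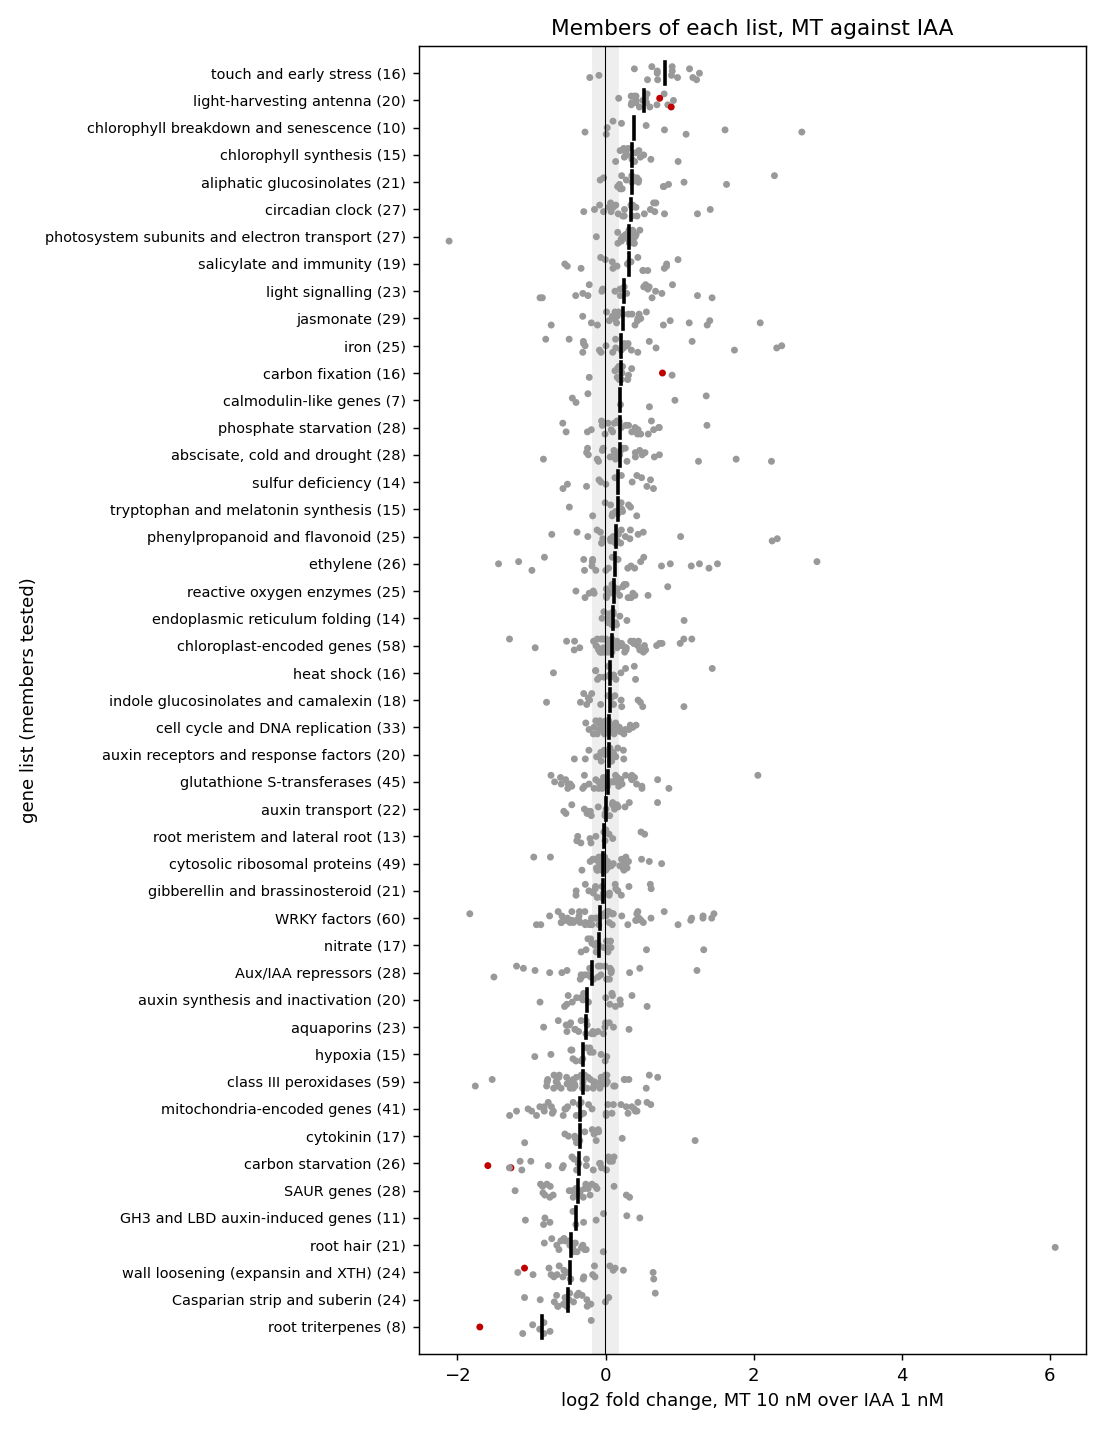
Log2 fold change of MT over IAA for each tested member of the 47 gene lists (grey, red where the adjusted p is under 0.05), with the list median as a black bar, the median of all genes as a line and a grey band from their lower to their upper quartile. Antenna genes all lie right of 0, at 0.18 to 0.92, the 8 root triterpene genes all lie left of 0, and red points occur in 5 lists.

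Genes of early stress, defence and wound hormones were higher by median with MT, apart from the WRKY factors. Touch and early stress genes, which respond within minutes to handling, cold or elicitors, had the highest median of the 47 lists, 0.80, with 0 of 16 called and 10 higher and 0 lower at an unadjusted p under 0.05. Left-out libraries moved that median from 0.53 without MT replicate 1 to 1.08 without MT replicate 2. STZ, a zinc finger repressor of stress responses, was at 14.8 and 19.4 CPM with IAA, at 48.8 and 33.7 CPM with MT and at 6.99 and 10.3 CPM in the controls (log2 1.27 ± 0.25, adjusted p = 0.103). SZF1, a zinc finger gene of the salt response, was at 102 and 109 CPM with IAA, at 276 and 188 CPM with MT and at 48.9 and 59.0 CPM in the controls (log2 1.14 ± 0.18, adjusted p = 0.0825), and the calmodulin-like TCH2 at 68.5 and 66.6 CPM with IAA and at 104 and 95.8 CPM with MT (log2 0.57 ± 0.08, adjusted p = 0.0633). In STZ and SZF1 the MT libraries stood well apart from each other, replicate 1 being the higher.

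Among the called genes, CRK10 and OPCL1 of defence rose. CRK10, a cysteine-rich receptor-like kinase, was at 63.5 and 59.4 CPM with IAA, at 142 and 118 CPM with MT and at 32.8 and 33.6 CPM in the controls (log2 1.08 ± 0.10, adjusted p = 0.0425), and it overlaps AT4G23190 on the other strand. OPCL1, which activates a jasmonate precursor for shortening in the peroxisome, was at 53.8 and 52.8 CPM with IAA, at 90.7 and 96.0 CPM with MT and at 38.8 and 39.7 CPM in the controls (log2 0.81 ± 0.07, adjusted p = 0.0425). Levels of both climbed from control through IAA to MT with no overlap between any groups.

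Of the jasmonate list 0 of 29 passed, 10 were higher and 2 lower at an unadjusted p under 0.05, and the median was 0.24, ranging from 0.13 to 0.40 with MT replicate 2 or MT replicate 1 left out. The lipoxygenase gene LOX4 was at 16.6 and 23.3 CPM with IAA, at 58.4 and 47.6 CPM with MT and at 12.4 and 11.6 CPM in the controls (log2 1.41 ± 0.18, adjusted p = 0.0557), and LOX3 at 17.59 and 15.8 CPM with IAA and at 28.4 and 44.6 CPM with MT (log2 1.13 ± 0.21, adjusted p = 0.0985). AOS, which makes the first committed jasmonate intermediate, had a log2 fold change of 0.48 ± 0.09 (adjusted p = 0.0991). PDF1.2, a plant defensin used as a marker of jasmonate with ethylene, was at 48.1 and 43.9 CPM with IAA and at 93.9 and 74.8 CPM with MT (log2 0.87 ± 0.15, adjusted p = 0.0936).

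Ethylene genes lay in both directions, with 0 of 26 called, 11 higher and 3 lower at an unadjusted p under 0.05 and a median of 0.13. EBF2, an F-box gene that ends ethylene signalling and is itself switched on by ethylene, was at 140.3 and 98.8 CPM with IAA, at 428 and 254 CPM with MT and at 85.9 and 76.3 CPM in the controls (log2 1.51 ± 0.27, adjusted p = 0.0945). ACS6, of the enzyme that makes the ethylene precursor, was at 17.8 and 19.0 CPM with IAA and at 61.0 and 36.2 CPM with MT (log2 1.4 ± 0.23, adjusted p = 0.0824), whereas ACS8 of the same family was at 3.63 and 3.93 CPM with IAA and at 0.962 and 1.80 CPM with MT (log2 -1.45 ± 0.31, adjusted p = 0.114). The ethylene response factor gene ERF2, named after its values were seen, was at 4.58 and 5.57 CPM with IAA, at 27.5 and 16.0 CPM with MT and at 6.40 and 8.60 CPM in the controls (log2 2.1 ± 0.29, adjusted p = 0.0617). RBOHD, the oxidase that makes superoxide in defence, was at 175 and 172 CPM with IAA, at 265 and 250.4 CPM with MT and at 98.1 and 99.6 CPM in the controls (log2 0.57 ± 0.08, adjusted p = 0.0583). WRKY factors, regulators of immunity and senescence, lay in both directions, with a median of -0.08 and 0 of 60 called. Among them 10 were higher and 16 lower at an unadjusted p under 0.05, against 9.08% and 8.28% of all genes tested. WRKY33 was at 71.5 and 81.6 CPM with IAA and at 249 and 132 CPM with MT (log2 1.32 ± 0.27, adjusted p = 0.106) and WRKY18 at 114 and 126 CPM with IAA and at 68.6 and 90.6 CPM with MT (log2 -0.60 ± 0.14, adjusted p = 0.124).

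In the abscisate pathway PYL4, a receptor of that hormone, fell. It stood at 166 and 179.7 CPM with IAA, at 102 and 108 CPM with MT and at 245 and 254 CPM in the controls and was 1.65-fold lower with MT (log2 -0.72 ± 0.08, adjusted p = 0.0455). Of the 28 abscisate, cold and drought genes, 0 passed, 10 were higher and 1 lower at an unadjusted p under 0.05, and the median was 0.20. NAC019, a transcription factor of drought and jasmonate responses, was at 1.71 and 1.85 CPM with IAA and at 5.69 and 11.2 CPM with MT (log2 2.24 ± 0.33, adjusted p = 0.0633). NAP, a transcription factor that promotes leaf senescence, was at 3.31 and 2.102 CPM with IAA, at 23.4 and 10.7 CPM with MT and at 1.34 and 0.991 CPM in the controls (log2 2.65 ± 0.41, adjusted p = 0.073). For NAC019 and NAP the MT libraries differed from each other about 2-fold, and the calls without MT replicate 2 included both.

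Secondary metabolism held further called genes. FAH1, the ferulate 5-hydroxylase that leads to syringyl lignin and sinapate esters, was at 83.6 and 80.5 CPM with IAA, at 137 and 144 CPM with MT and at 62.4 and 72.9 CPM in the controls (log2 0.77 ± 0.09, adjusted p = 0.0498). The cytochrome P450 genes CYP71B26 and CYP89A2 had log2 fold changes of 0.89 ± 0.09 and 0.79 ± 0.07 (adjusted p = 0.0455 and 0.0425). Aliphatic glucosinolates are sulfur-rich defence compounds made from methionine. Their list had 0 of 21 called, 9 higher and 0 lower at an unadjusted p under 0.05 and a median of 0.36. CYP79F1, which opens their synthesis, was at 57.8 and 36.8 CPM with IAA, at 100.1 and 97.2 CPM with MT and at 37.4 and 56.7 CPM in the controls (log2 1.06 ± 0.25, adjusted p = 0.124), and FMO GS-OX3, which oxidises their side chain, at 17.1 and 15.3 CPM with IAA and at 28.2 and 30.3 CPM with MT (log2 0.85 ± 0.16, adjusted p = 0.0985). Indole glucosinolate and camalexin genes, which like IAA and melatonin draw on tryptophan, had a median of 0.06 and 0 of 18 called.

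Gene families with many auxin-responsive members lay, by median, below the IAA level with MT, and 0 of their genes passed the test. Aux/IAA repressor genes, many but not all of which auxin itself switches on, had a median of -0.18. Of 28, 7 were lower and 0 higher at an unadjusted p under 0.05. Their sum was 1326 and 1346 CPM with IAA, 1234 and 1193.5 CPM with MT and 1378 and 1420.5 CPM in the controls. In that sum both IAA libraries lay below both controls. IAA19 was at 7.51 and 10.7 CPM with IAA, at 5.77 and 5.02 CPM with MT and at 11.8 and 14.9 CPM in the controls (log2 -0.75 ± 0.22, adjusted p = 0.17), and IAA5 at 0.879 and 1.24 CPM with IAA, at 0.509 and 0.583 CPM with MT and at 0.531 and 1.179 CPM in the controls (log2 -0.95 ± 0.48, adjusted p = 0.364). GH3 enzymes conjugate auxin to amino acids, and with the LBD genes they gave a median of -0.40, with 4 lower and 1 higher of 11 at an unadjusted p under 0.05. GH3.3 stood at 21.6 and 32.2 CPM with IAA, at 11.7 and 13.6 CPM with MT and at 39.7 and 39.7 CPM in the controls, stepwise downward from control through IAA to MT (log2 -1.08 ± 0.19, adjusted p = 0.0945). GH3.2, annotated as BRU6, had a log2 fold change of -0.75 ± 0.13 (adjusted p = 0.092), and GH3.5, annotated as WES1, one of 0.46 ± 0.11 (adjusted p = 0.132). LBD29, a lateral root regulator, was read at 0.834 and 0.820 CPM with IAA, at 0.453 and 0.482 CPM with MT and at 0.811 and 0.455 CPM in the controls (log2 -0.82 ± 0.43, adjusted p = 0.387). The SAUR growth genes had a median of -0.37 with 7 of 28 lower and 0 higher at an unadjusted p under 0.05, and SAUR15 had a log2 fold change of -1.22 ± 0.33 (adjusted p = 0.156). The SAUR sum was 253 and 265 CPM with IAA, 203 and 211 CPM with MT and 268 and 289 CPM in the controls. There too both IAA libraries lay below both controls. GH3 with LBD sums were 308 and 302 CPM with IAA, 258 and 282 CPM with MT and 283 and 286 CPM in the controls.

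Auxin carriers lay in both directions, with 0 of 22 called and a median of 0.00. Among them 1 was higher and 4 lower at an unadjusted p under 0.05, against 9.08% and 8.28% of all genes tested. The efflux carrier PIN7 was the one that was higher, at 89.8 and 71.3 CPM with IAA, at 146 and 116 CPM with MT and at 61.8 and 66.9 CPM in the controls (log2 0.70 ± 0.15, adjusted p = 0.112). PIN3 was at 169 and 167 CPM with IAA and at 146 and 139 CPM with MT (log2 -0.24 ± 0.11, adjusted p = 0.31), PIN2, annotated as EIR1, had a log2 fold change of -0.53 ± 0.18 (adjusted p = 0.217), and the influx carrier AUX1 one of 0.01 ± 0.08 (adjusted p = 0.966), with its sign reversing without MT replicate 1 and with upper quartile scaling. TAA1, which turns tryptophan into the direct precursor of IAA, was at 11.5 and 13.8 CPM with IAA and at 16.2 and 11.6 CPM with MT (log2 0.13 ± 0.20, adjusted p = 0.784), and its sign reversed without MT replicate 1.

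Genes of tryptophan and melatonin synthesis did not pass the test in either direction, with 0 of 15 called and a median of 0.17. Among them 3 were higher and 1 lower at an unadjusted p under 0.05, against 9.08% and 8.28% of all genes tested. ASA1, the entry enzyme of tryptophan synthesis, was at 46.7 and 48.4 CPM with IAA and at 66.2 and 61.2 CPM with MT (log2 0.42 ± 0.08, adjusted p = 0.0985). NSI, the serotonin acetyltransferase of the chloroplast also called SNAT1, was at 45.1 and 44.8 CPM with IAA, at 55.4 and 49.3 CPM with MT and at 46.4 and 45.2 CPM in the controls (log2 0.22 ± 0.08, adjusted p = 0.245). OMT1, a methyltransferase of caffeic acid that also methylates acetylserotonin, was at 261 and 265 CPM with IAA and at 269 and 283 CPM with MT (log2 0.07 ± 0.08, adjusted p = 0.72).

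Phosphate starvation genes had summed levels above the controls in both treatments, with MT above IAA. Their list had 0 of 28 called, 9 higher and 0 lower at an unadjusted p under 0.05 and a median of 0.20, which was 0.14 without MT replicate 1 and 0.36 without IAA replicate 2. The summed level stood at 1713 and 1945 CPM with IAA, at 2254 and 2144 CPM with MT and at 979.8 and 896 CPM in the controls. The acid phosphatase gene PAP17 was at 73.8 and 85.4 CPM with IAA, at 131 and 132 CPM with MT and at 35.5 and 31.3 CPM in the controls (log2 0.72 ± 0.10, adjusted p = 0.0617). SPX1, a phosphate sensor that holds back the master regulator PHR1, was at 87.6 and 109 CPM with IAA, at 139 and 134 CPM with MT and at 22.1 and 23.5 CPM in the controls (log2 0.47 ± 0.11, adjusted p = 0.124), and SPX3 at 13.4 and 18.6 CPM with IAA, at 24.4 and 19.0 CPM with MT and at 1.65 and 3.08 CPM in the controls (log2 0.44 ± 0.28, adjusted p = 0.479). SPX3 levels were alike in IAA replicate 2 and MT replicate 2.

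Hypoxia genes were, by median, below the IAA level with MT, at -0.31 over 15 genes, with 0 called. At an unadjusted p under 0.05, 2 were lower and 0 higher, against 8.28% and 9.08% of all genes tested. The summed levels of the treatments overlapped, at 957 and 1084 CPM with IAA and 730 and 1014 CPM with MT. The controls were below both, at 543 and 501 CPM. The median went from -0.60 without MT replicate 2 to -0.07 without MT replicate 1. ADH1, the alcohol dehydrogenase of fermentation, was at 113 and 148 CPM with IAA, at 86.2 and 146 CPM with MT and at 45.4 and 38.2 CPM in the controls (log2 -0.17 ± 0.25, adjusted p = 0.781), and its sign reversed without MT replicate 1 or IAA replicate 2.

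In clock and light genes the MT libraries disagreed with each other. Of 27 clock genes 0 passed, 11 were higher and 1 lower at an unadjusted p under 0.05, and the median of 0.34 was 0.07 without MT replicate 1 and 0.47 without MT replicate 2. GI, an evening gene that links the clock to flowering, was at 22.0 and 15.74 CPM with IAA, at 56.1 and 33.2 CPM with MT and at 11.2 and 10.3 CPM in the controls (log2 1.24 ± 0.26, adjusted p = 0.112). CCA1, a morning gene, was at 40.9 and 42.9 CPM with IAA, at 62.0 and 37.8 CPM with MT and at 61.6 and 54.3 CPM in the controls (log2 0.25 ± 0.21, adjusted p = 0.594), and its sign reversed without MT replicate 1. PRR3, a pseudo-response regulator of the clock, was more even, at 18.22 and 17.0 CPM with IAA, at 28.7 and 27.8 CPM with MT and at 10.98 and 11.6 CPM in the controls (log2 0.68 ± 0.10, adjusted p = 0.0633). Light signalling genes had 0 of 23 called, 10 higher and 5 lower at an unadjusted p under 0.05, and a median of 0.25, or 0.09 without MT replicate 1. PIF3, a factor degraded when phytochrome sees light, was at 27.3 and 22.2 CPM with IAA, at 66.1 and 51.1 CPM with MT and at 16.9 and 14.2 CPM in the controls (log2 1.24 ± 0.16, adjusted p = 0.0578). ELIP1, which protects chloroplasts from excess light, was at 6.07 and 7.13 CPM with IAA and at 22.4 and 13.4 CPM with MT (log2 1.44 ± 0.25, adjusted p = 0.0936).

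**Figure D4:**
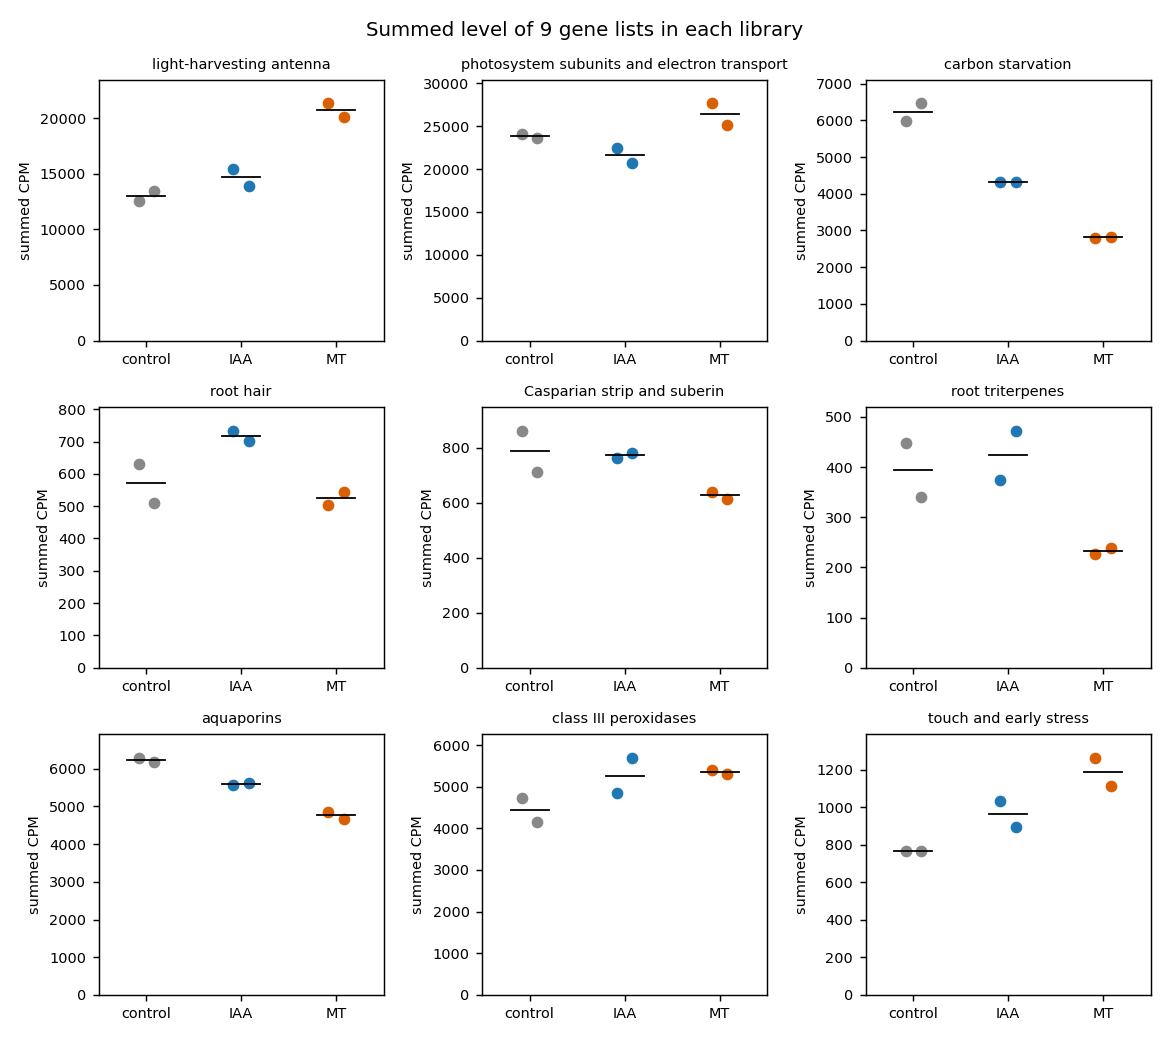
Summed level of 9 gene lists in each library (y axis, CPM from 0; points are libraries and bars the mean of 2), by group. Antenna genes sum to 20127 to 21309 CPM with MT against 13905 to 15450 CPM with IAA, carbon starvation genes to 2806 to 2822 CPM against 4311 CPM, and the peroxidase sums of both groups overlap, which they do not without PRXR1 (3015 to 3016 CPM against 3650.5 to 3792 CPM).

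The other called genes have less clear roles or stand alone in their pathway. MSRB9, which repairs oxidised methionine, was at 51.7 and 58.5 CPM with IAA, at 22.6 and 25.1 CPM with MT and at 33.8 and 34.4 CPM in the controls, with IAA the highest group and MT the lowest (log2 -1.21 ± 0.10, adjusted p = 0.0425). GT2, a trihelix DNA-binding factor that overlaps AT1G76892 on the other strand, was at 87.4 and 90.0 CPM with IAA, at 56.9 and 58.8 CPM with MT and at 94.7 and 101 CPM in the controls (log2 -0.62 ± 0.07, adjusted p = 0.0455). The kelch repeat gene AT1G15670, the C1 domain gene AT2G23100 and the loricrin-like gene AT5G09670 had log2 fold changes of -0.83 ± 0.09, -1.22 ± 0.14 and -1.05 ± 0.11 (adjusted p = 0.0455, 0.0455 and 0.0455). UCP5, a carrier of the inner mitochondrial membrane, was at 54.9 and 52.7 CPM with IAA, at 82.3 and 92.1 CPM with MT and at 35.6 and 34.2 CPM in the controls (log2 0.70 ± 0.08, adjusted p = 0.0455). AT5G15950, an adenosylmethionine decarboxylase gene of polyamine synthesis, was at 18.1 and 18.3 CPM with IAA, at 40.6 and 33.2 CPM with MT and at 17.5 and 16.4 CPM in the controls (log2 1.02 ± 0.12, adjusted p = 0.0455). The glycine-rich gene AT3G04640, the uncharacterized AT3G23170, the BPS1-like AT1G74450, the WD40 repeat gene AT1G78070 and the P-loop ATPase gene AT5G17760 had log2 fold changes of 1.12 ± 0.13, 1.02 ± 0.10, 0.82 ± 0.10, 0.78 ± 0.08 and 0.69 ± 0.08. Their adjusted p ran from 0.0455 to 0.0481.

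Several groups had a median near that of all genes. Cell cycle and DNA replication genes had a median of 0.04. Of 33, 3 were higher and 0 lower at an unadjusted p under 0.05, against 9.08% and 8.28% of all genes tested. Genes listed as cytosolic ribosomal proteins had a median of -0.03 over 49. That list was drawn by symbol or product text alone, so it can hold ribosomal proteins of organelles. The median was 0.03 over 45 glutathione S-transferases, 0.06 over 16 heat shock genes and -0.02 over 13 root meristem and lateral root genes. Auxin receptors and response factors had a median of 0.04 over 20. In none of these 6 lists did a gene pass the test. The glutathione S-transferases lay in both directions, with 5 higher and 8 lower at an unadjusted p under 0.05. Over all genes tested those shares were 9.08% and 8.28%. Cytokinin genes were lower at the median, -0.35 over 17, with 4 lower and 1 higher at an unadjusted p under 0.05 and 0 called. Mitochondria-encoded genes had a median of -0.34 with 0 of 41 called, from a summed level of 24.3 to 33.4 CPM in every library.

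In the remaining lists 0 genes passed. The nutrient lists had medians of 0.21 for iron, -0.09 for nitrate and 0.17 for sulfur deficiency. AT1G68670, a MYB-type transcription factor gene of the nitrate list, was at 49.1 and 48.5 CPM with IAA and at 75.1 and 68.1 CPM with MT (log2 0.55 ± 0.08, adjusted p = 0.0633). APR1, which reduces sulfate for cysteine, was at 136 and 124 CPM with IAA and at 208 and 189 CPM with MT (log2 0.61 ± 0.14, adjusted p = 0.124). Salicylate and immunity genes had a median of 0.32, which was 0.13 without IAA replicate 1, 0.54 without IAA replicate 2 and 0.15 without MT replicate 1. The median was 0.38 for chlorophyll breakdown and senescence, 0.11 for reactive oxygen enzymes, 0.14 for phenylpropanoids and flavonoids and 0.09 for protein folding in the endoplasmic reticulum. Genes of auxin synthesis and inactivation had a median of -0.25, which was -0.02 without MT replicate 1 and -0.11 without IAA replicate 2. Gibberellin and brassinosteroid genes had a median of -0.04, and chloroplast-encoded genes one of 0.09. The 7 calmodulin-like genes tested had a median of 0.20 that turned negative without MT replicate 2, at -0.18, and without IAA replicate 1, at -0.04.

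**Figure D5:**
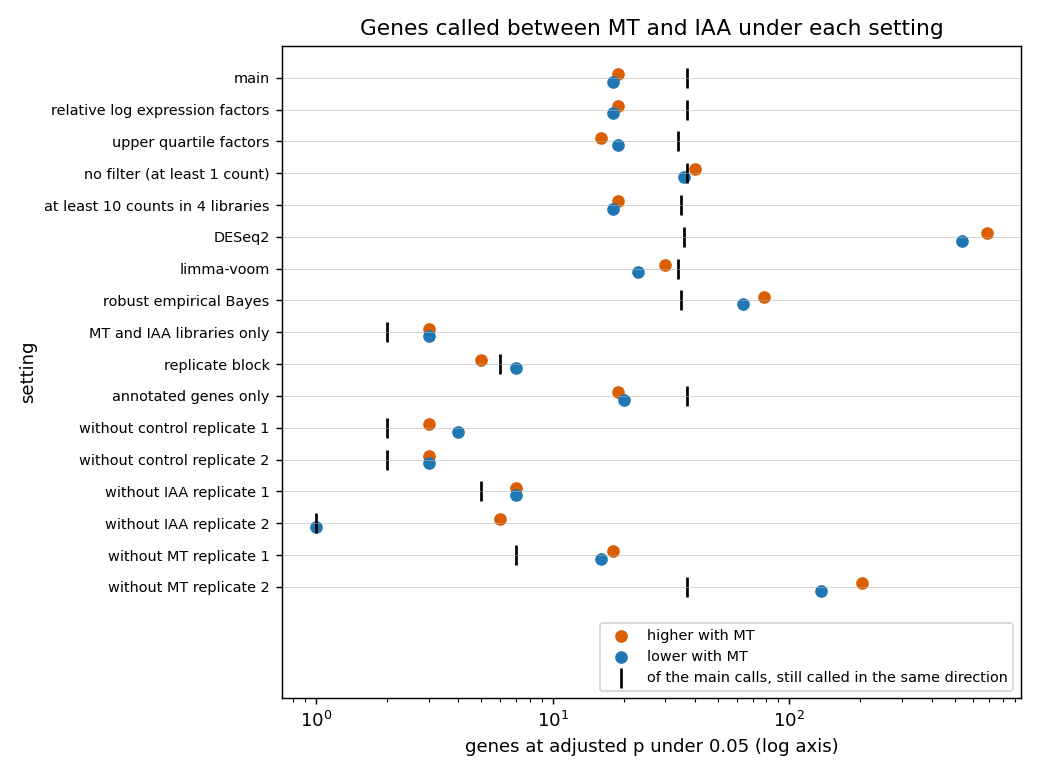
Number of genes called between MT and IAA (x axis, log scale) under the setting used in the text and each alternative (y axis), orange for higher and blue for lower with MT, with a black tick for how many of the 37 genes were called again in the same direction. DESeq2 called 1225 genes and the fit on the MT and IAA libraries alone called 6.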

How the data were processed

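RNA sequencing libraries of wild-type seedlings were grouped by their titles. The authors deposited raw read counts per gene in 1 table. Per the submitters' processing notes, the upstream software comprised DESeq 1.18.0, HTSeq 0.6.1, Bowtie2 2.2.3 and TopHat2 2.0.12. Neither build nor annotation nor strand setting is given in the sources used here. Coordinates and sequences are therefore not printed, and overlapping genes can share reads. The 351 new-gene entries were kept. Of the IDs, 23606 matched TAIR10.1, used for symbols, products and overlaps.

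Tests used edgeR 4.0.16 under R 4.3.3: TMM scaling, filterByExpr, and a quasi-likelihood fit to all 6 libraries with group as only term (3 residual degrees of freedom). Benjamini-Hochberg adjustment ran over 21355 genes. Every adjusted p is edgeR's unless another tool is named, and values with ± are log2 fold changes with SE. CPM are TMM-scaled. DESeq2 1.42.0 and limma 3.58.1 were alternatives, and the fit was tested on simulated data.

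Named were, among called genes with at least 2 CPM on average and no overlap, the 10 highest and 10 lowest in fold, the 5 smallest p and 5 highest levels per direction, up to 4 members of each list with a call, and 18 sentinels. Other list members came from the 5 smallest p of their list, and genes said to be named after their values were seen were added. The 47 lists and all members were chosen with earlier results of these data known.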

Additional observations from a re-analysis of the deposited data

How the results depend on the processing

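The number of calls depended strongly on the settings. Against 19 genes higher and 18 lower with MT, the lists of 2-fold genes being 7 and 12, every gene with at least 1 count gave 40 and 36 (2-fold higher 16), robust empirical Bayes 78 and 64 (2-fold higher 23), limma-voom 30 higher (2-fold 11), and DESeq2 685 and 540 (2-fold 73 and 46). The fit on the MT and IAA libraries alone gave 3 and 3, with the same 3 and 3 at 2-fold. Leaving out 1 library gave 3 to 204 higher and 1 to 136 lower, and 3 to 89 and 1 to 71 at 2-fold. With the replicate number as a block, 5 were higher and 7 lower, with 5 and 7 at 2-fold, and 6 of the 37 were among them. Over all genes, deviations of same-numbered libraries correlated at 0.079 between IAA and MT, 0.007 between control and MT and 0.025 between control and IAA. A batch that acts on few genes need not show in such a correlation. The labels do not say if same-numbered libraries were handled together, and this was not tested. Other factors, the stricter filter and leaving out new-gene entries kept each count within 1.5 times. The causes were not tested. Among 290 named genes, signs reversed for AUX1 (-0.010 with upper quartile factors) and, with single libraries left out, for AUX1 (-0.072 to 0.085), TAA1 (-0.13 to 0.35), CCA1 (-0.15 to 0.57), ADH1 (-0.60 to 0.16) and PDIL1-2 (-0.0014 to 0.28), all uncalled. Leaving out 1 member, chosen after seeing the data, moved the log2 ratio of summed levels of MT to IAA from 0.02 to -0.30 for class III peroxidases (without PRXR1) and from -0.34 to -0.63 for endodermis markers (without ESB1). Depth limits the ratios of SDR3, AT1G02150 and AT5G01881, which rest on 1 to 17 counts in each MT library.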

Other observations

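Some genes were read in one library of a group and hardly in the other. Taking genes with at least 5 CPM in the higher library and a 10-fold gap between the 2 libraries of a group, there were 28 in IAA and 48 in MT, 62 in either, among 16765 genes that reached 5 CPM in a library. The controls had 38. Of these 62, 0 were called between MT and IAA, against 0.173% of all genes tested. A 10-fold gap within a group widens the spread that the test uses, so few of them could pass. The widest gap within a group among the 37 called genes was 7.62-fold. WIP1 was at 28.3 and 0.532 CPM with MT and at 28.3 and 1.05 CPM in the controls. UBQ1, which overlaps other gene models, was also uneven but fell short of the 10-fold gap. It was at 202 and 27.6 CPM with MT, 8.30 and 18.7 CPM with IAA and 136 and 167 CPM in the controls.

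The same on-and-off pattern could also fall along the groups. IMP4 was at 0.0283 and 0.0254 CPM with MT, 11.1 and 16.7 CPM with IAA and 0.0280 and 15.9 CPM in the controls. AT3G50685 was at 0.0283 and 0.0254 CPM with MT, 23.8 and 14.5 CPM with IAA and 0.0280 and 20.6 CPM in the controls. Neither passed (adjusted p = 0.164 and 0.162), and their fitted log2 fold changes of -8.86 and -9.32 rest on 1 count in each MT library. MT replicate 1 held 0.189% of its counts in new-gene entries, against 0.293 to 0.357% in the other 5 libraries.

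ABCC7, a transporter gene that overlaps AT3G13110 on the same strand, was at 13.0 and 11.7 CPM with IAA, 56.4 and 144 CPM with MT and 10.7 and 11.01 CPM in the controls. Its log2 fold change of 3.02 ± 0.40 had an adjusted p of 0.0578 and is larger than that of any gene called higher.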
